A study of Homo sapiens with 16 samples.

Results

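The histone mark H3K27me3 was mapped by ChIP-seq in THLE-2 cells, and the regions described are all peaks of its 2 deposited lists on chromosomes 1 to 22 and X: 46173 in replicate 1 and 90461 in replicate 2. Together these are 136634 of the 172991 peaks on those chromosomes in the 8 lists of the series. THLE-2 is an immortalised, non-tumour liver epithelial line, which the labels call normal liver epithelial cells. Each replicate was an immunoprecipitated (IP) library set against its own input library of sonicated chromatin from the same line, with no treatment or genetic change given. The series states the replicates to be biological, and 1 line cannot stand for liver in general. Beside the H3K27me3 libraries, THLE-2 libraries of EZH2 and of JARID2, with 2 replicates and their own inputs each, served as comparison. HepG2 carcinoma cells were profiled for JARID2 only among the libraries used here, so the mark was described in THLE-2 alone.

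H3K27me3 is the methylation that Polycomb repressive complex 2 places on the tail of histone H3. EZH2 is the catalytic subunit of that complex and JARID2 an accessory subunit that binds chromatin. The mark is known from transcriptionally silent chromatin: in narrow, high peaks over the CpG islands of developmental regulators, and in broad, low domains over genes and intergenic DNA that a cell type does not use. A CpG island is a stretch rich in the dinucleotide CG, and such stretches form the starts of most housekeeping and developmental genes, whereas many tissue-restricted genes start in CpG-poor DNA.

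Both kinds of gene start were found under peaks, but not in the same way in the 2 replicates, and 6 promoters show the range. The 250 bases before the annotated start are given from RefSeq on GRCh38.p14, with each CG in capitals. The motif searched was CG, whose reverse complement is itself, and 98.1% of the 15812 coding promoters with a RefSeq sequence hold at least 1 CG. HOXD1 and HOXA9, body-plan homeobox genes, start in CG-rich DNA that lay wholly inside a peak in replicate 2 and had no peak within 2 kb in replicate 1.

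HOXD1 (chr2:176188418-176188667, plus strand): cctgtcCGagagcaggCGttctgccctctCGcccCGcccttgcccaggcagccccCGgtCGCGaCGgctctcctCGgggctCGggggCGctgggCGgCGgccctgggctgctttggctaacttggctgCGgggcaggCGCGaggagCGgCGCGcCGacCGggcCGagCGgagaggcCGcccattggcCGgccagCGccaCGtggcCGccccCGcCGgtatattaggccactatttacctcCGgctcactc

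HOXA9 (chr7:27165538-27165787, minus strand): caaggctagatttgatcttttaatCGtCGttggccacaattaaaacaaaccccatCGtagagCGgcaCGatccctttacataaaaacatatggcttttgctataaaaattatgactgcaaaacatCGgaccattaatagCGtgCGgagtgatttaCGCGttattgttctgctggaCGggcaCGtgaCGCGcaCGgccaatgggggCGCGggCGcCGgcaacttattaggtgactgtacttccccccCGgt

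KLK4, a secreted protease of tooth enamel, and PAX4, a homeobox factor of the pancreatic islet, start in CG-poor DNA that lay wholly inside a peak in both replicates. DLX1, a homeobox factor of forebrain and face, is the CpG-rich start of the gene classes with the best shared rank of tag density.

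KLK4 (chr19:50911396-50911645, minus strand): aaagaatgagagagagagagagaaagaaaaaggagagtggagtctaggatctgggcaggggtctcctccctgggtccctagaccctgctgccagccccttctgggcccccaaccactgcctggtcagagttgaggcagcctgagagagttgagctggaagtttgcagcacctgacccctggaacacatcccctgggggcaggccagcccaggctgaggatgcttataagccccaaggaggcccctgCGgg

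PAX4 (chr7:127618143-127618392, minus strand): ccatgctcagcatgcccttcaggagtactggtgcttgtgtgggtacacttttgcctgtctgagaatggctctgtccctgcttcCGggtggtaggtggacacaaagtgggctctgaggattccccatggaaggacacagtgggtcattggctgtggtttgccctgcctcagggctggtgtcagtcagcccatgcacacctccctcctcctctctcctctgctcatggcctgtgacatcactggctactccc

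DLX1 (chr2:172085257-172085506, plus strand): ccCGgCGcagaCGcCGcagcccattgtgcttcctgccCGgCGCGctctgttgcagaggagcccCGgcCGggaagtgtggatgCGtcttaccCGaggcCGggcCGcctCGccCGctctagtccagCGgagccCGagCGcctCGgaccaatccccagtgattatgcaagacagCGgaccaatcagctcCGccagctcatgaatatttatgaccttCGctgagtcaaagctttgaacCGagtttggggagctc

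GAPDH, a glycolytic enzyme gene used by nearly every cell, has a CG-rich start without a peak in either replicate. The RefSeq start used for it lies inside the annotated gene (chr12:6534517-6538371) and not at its outer end.

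GAPDH (chr12:6535014-6535263, plus strand): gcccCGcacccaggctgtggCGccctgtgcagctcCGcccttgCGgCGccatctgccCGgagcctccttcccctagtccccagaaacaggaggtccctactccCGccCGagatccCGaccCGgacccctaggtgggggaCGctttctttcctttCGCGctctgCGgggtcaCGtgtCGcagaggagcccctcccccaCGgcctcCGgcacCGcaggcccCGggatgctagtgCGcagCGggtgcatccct

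The counts of CG in these runs were 31 for HOXD1, 20 for HOXA9, 1 for KLK4, 1 for PAX4, 23 for DLX1 and 22 for GAPDH. The peak over the HOXD1 start held 1345 tags in replicate 2 (423 tags per kb) and that over HOXA9 held 2960 tags (381 per kb). The KLK4 peak held 736 tags in replicate 1 and 1076 in replicate 2. The PAX4 peak held 1095 and 1630 tags in the same order. DLX1 sat in a peak of 2894 tags in replicate 1 and 3710 in replicate 2. GAPDH, without a peak, and HOXA9, inside one, hold similar numbers of CG.

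The IP libraries held 39.0 M tags in replicate 1 and 38.1 M in replicate 2 after MACS filtering, and their inputs 25.1 and 31.1 M. Redundancy was 18% in both IP libraries, and 29% and 34% in the inputs. At this like depth the replicates stood apart in yield: 12.2% of IP tags lay in peaks in replicate 1 (95% Wilson interval 12.14 to 12.16%) and 32.5% in replicate 2 (32.52 to 32.55%), intervals that cover counting error only. Every result is therefore given for each replicate. MACS gave each of the peaks in both lists a false discovery rate of 100%, its estimate from swapping IP and input, so the lists carry no usable error rate. A gene without a peak is one where none was called, not one shown to lack the mark. Of 5 epithelial marker genes (KRT8, KRT18, KRT19, EPCAM, CDH1) and 4 mesenchymal ones (VIM, ZEB1, ZEB2, FN1), none had a peak at a gene end in either replicate. Of 6 hepatocyte markers, TTR and HNF4A had one in both replicates, and ALB and APOB in replicate 2 alone, while APOA1 and SERPINA1 had none. Among blood markers, CD3D and CD3E had a peak in both replicates, and PTPRC and CD34 in none. Peaks show the mark and not expression, so the labelled cell type could not be checked directly.

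Median peak width was 1494 bp in replicate 1 and 1117 bp in replicate 2, with 90% of peaks between 912 and 4776 bp and between 585 and 4765 bp. The widest reached 27098 and 26491 bp. Peaks covered 91.4 Mb in replicate 1 and 153 Mb in replicate 2, which is 3.02% and 5.04% of the 3030 Mb between the chromosome starts and the last gene or peak. Median density was 44.7 tags per kb in replicate 1 and 52.5 in replicate 2. The upper tail separated the replicates more, since the densest 5% of peaks began at 65.9 tags per kb in replicate 1 and at 109 in replicate 2. Summits lay at 49.95% of peak width in the median of replicate 1 and 49.83% in replicate 2.

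In the full lists, the mark covered more DNA than the proteins of the complex in the same line and lay less at gene ends. Coverage averaged 4.03% ± 1.43 for H3K27me3, against 0.261% ± 0.0253 for EZH2 and 0.115% ± 0.00448 for JARID2 (SD, n = 2 each). The share of peaks within 2 kb of an end of a protein-coding gene was 4.67% and 6.10% for H3K27me3, 54.6% and 34.9% for EZH2, and 13.4% and 13.6% for JARID2. Tags in peaks averaged 22.3% ± 14.4 of the IP library for H3K27me3, 3.15% ± 0.106 for EZH2 and 0.666% ± 0.0122 for JARID2 (SD, n = 2 each). In these 3 measures of the full lists no H3K27me3 library overlapped the libraries of the other targets. Each difference reached p = 0.333 in an exact two-sided permutation test, the smallest that 2 libraries against 2 allow, and 0.381 after Benjamini-Hochberg adjustment over 8 differences, so none could pass 0.05. Restricting every list to its 2000 peaks of highest score left coverage differences of 0.144 percentage points against EZH2 and 0.335 against JARID2. The differences in the share of tags were then 0.60 against EZH2 and 3.33 against JARID2. At coding gene ends they were -34.5 against EZH2 and 3.98 against JARID2, the latter reversed in direction. The size of these differences thus depends on the number of peaks called. This cut kept nearly all 2081 peaks of EZH2 replicate 1, but a small part of the 46173 and 90461 H3K27me3 peaks. Median width was 1494 and 1117 bp for H3K27me3, 3012 and 1032 bp for EZH2 (exact permutation p = 1), and 598 and 605 bp for JARID2 (exact permutation p = 0.333). H3K27me3 widths thus fell within the spread of the EZH2 libraries and above both JARID2 libraries. IP depth differed, at 29.6 and 32.4 M tags for EZH2 and 11.7 and 13.0 M for JARID2, and its part in these differences was not tested.

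Joining peaks across gaps of up to 3 kb gave 26495 domains in replicate 1 and 45233 in replicate 2. Most were small: 64.6% and 61.8% were a single peak. Yet 1332 domains in replicate 1 and 3579 in replicate 2 held 5 or more peaks, and 612 and 1543 were 20 kb or wider. These wide domains summed to 18.4 Mb in replicate 1 and 50.8 Mb in replicate 2, and held 10.4% and 16.5% of the peaks. By length, the 5 to 20 kb range was the bulk of both replicates, with 48.4% and 44.8% of domain length. Replicate 2 had 11 domains of 100 kb or wider and replicate 1 had none.

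**Figure D1:**
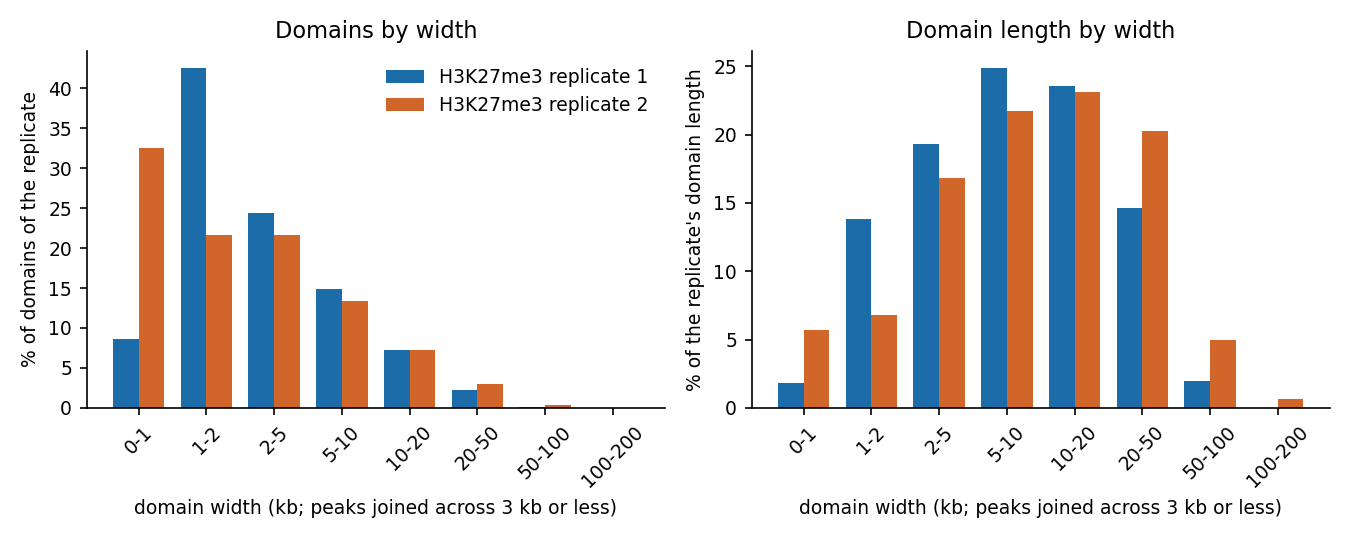
Domains of H3K27me3 by width class (kb, horizontal axes), as the percentage of each replicate's domains (left) and of its summed domain length (right), with 1 bar per replicate and no error bars. In replicate 2, 32.6% of domains were under 1 kb, against 8.64% in replicate 1, while domains of 20 to 50 kb took 20.3% of the length in replicate 2 and 14.6% in replicate 1.

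The widest domain of replicate 1 spanned 84.3 kb inside ACOXL, an acyl-CoA oxidase-like gene, at chr2:110766101-110850433, and replicate 2 covered 71.7% of it. A 77.7 kb domain over the end of higher coordinate of EBF1, a B-cell transcription factor, was covered to 43.8% by replicate 2. The widest of replicate 2 was the HOXA cluster, 144.5 kb at chr7:27084286-27228817, with 24 peaks and 36985 tags. Replicate 1 covered 0.798% of that domain. SLIT3, a secreted axon guidance ligand, carried 130.4 kb of replicate 2 in 45 peaks, of which replicate 1 covered 58.0%. The HOXD cluster with EVX2 made a domain of 130.1 kb in replicate 2 and was covered to 0% by replicate 1. Of these 5 domains, those over ACOXL, EBF1 and SLIT3 were covered in part by the other replicate, and the HOXA and HOXD domains were covered to under 1%. The SLIT3 domain held 6807 tags and the HOXD domain 33367 in replicate 2, at like width.

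Wide domains recurred between replicates. Of the 612 wide domains of replicate 1, 609 (99.5%) met a domain of replicate 2, which covered 82.3% of their length. Of the 1543 of replicate 2, 1461 (94.7%) met one of replicate 1, which covered 54.1% of their length. Single-peak domains recurred less, with 62.9% of those in replicate 1 and 21.4% of those in replicate 2 met by the other list. Wider stretches have more room to meet a peak, so these shares are not comparable between sizes as a measure of agreement. Wide domains touched a coding gene in 46.9% of cases in replicate 1 and 57.4% in replicate 2.

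Intersecting the domains of both replicates left 20555 shared stretches of 78.4 Mb. The widest, 70.0 kb at chr11:45313064-45383093, lay over the lncRNA genes LINC02696 and LINC02687 and held 17 peaks with 2957 tags in replicate 1 and 15 with 3854 in replicate 2. DPYSL5, a neuronal cytoskeleton regulator, carried the third, 67.3 kb at chr2:26857025-26924368, with 4200 tags in replicate 1 and 5165 in replicate 2. Of the 10 widest shared stretches, 4 touched a coding gene. Beside DPYSL5 these were RPH3A, a synaptic vesicle protein (53.9 kb), REEP1, a shaper of the endoplasmic reticulum in neurons (53.8 kb), and PHACTR1, a regulator of phosphatase and actin (52.7 kb). The other 6 lay over lncRNA or other non-coding annotation, among them LINC01548 (61.8 kb), PCAT29 (59.7 kb) and LINC01422 (57.9 kb).

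Coverage differed between chromosomes in a similar order in both replicates, and was lowest on X. Among the autosomes, chromosome 4 was covered least, at 1.33% in replicate 1 and 2.71% in replicate 2. Chromosome 20 was covered most, at 6.23% and 10.4%. The autosomal medians were 3.34% and 5.09%. Over the 22 autosomes the coverage of the replicates correlated with Pearson's r of 0.930 and Spearman's rho of 0.884, a description of chromosomes that share gene content and mappability. Gene density correlated with coverage less closely, with r of 0.210 and rho of 0.426 in replicate 1 and r of 0.478 and rho of 0.595 in replicate 2. Chromosome 19, the most gene-dense at 24.8 coding genes per Mb, was covered to 3.22% and 7.24%.

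X held 181 peaks in replicate 1 and 1227 in replicate 2, or 0.195% and 1.15% of its span. Its peak rate per Mb was 0.0725 of the autosomal rate in replicate 1 and 0.253 in replicate 2. EZH2 had 54 and 58 peaks on X, at 0.491 and 0.298 of its autosomal rate, and JARID2 had 30 and 24, at 0.104 and 0.0803. A low rate on X was thus seen in each of the 3 targets, and the number of X copies in the line was not analysed here. X still carried dense peaks at single genes in both replicates: FGF13, a member of the FGF family that stays inside the cell, had 161 tags per kb in replicate 1 and 170 in replicate 2 over its gene end. HTR2C, a serotonin receptor, had 121 and 160 tags per kb.

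**Figure D2:**
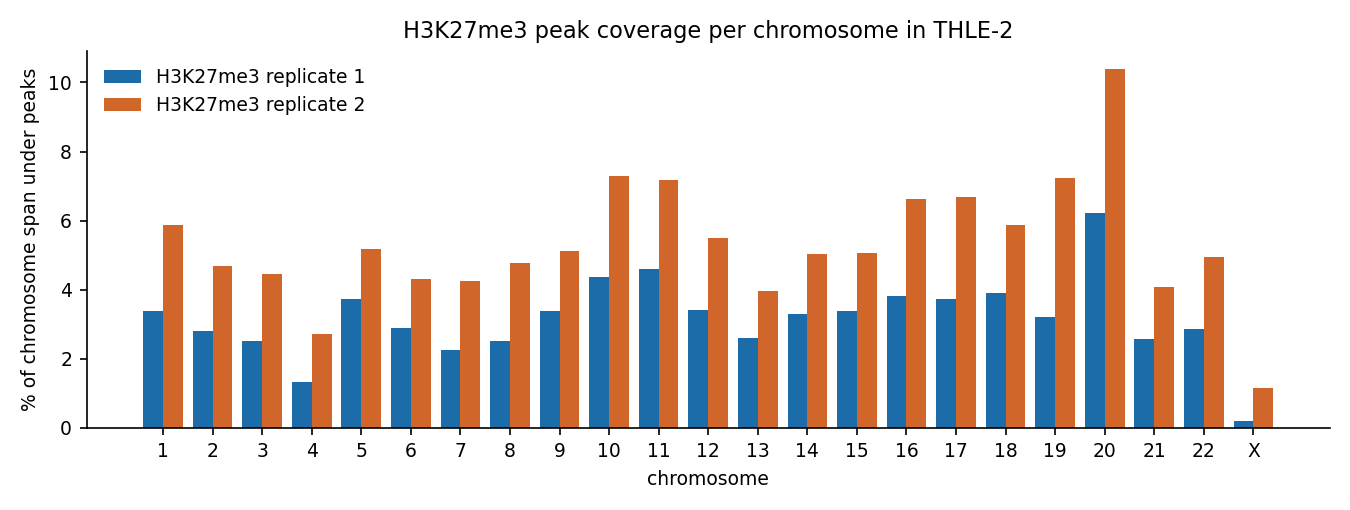
Percentage of each chromosome's span (vertical axis) under H3K27me3 peaks for chromosomes 1 to 22 and X (horizontal axis), 1 bar per replicate, with no error bars. Chromosome 20 stands highest at 6.23% and 10.4%, and X lowest at 0.195% and 1.15%.

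At the scale of 1 Mb, the number of peak summits per bin varied together in the replicates. Its r was 0.944 and its rho 0.957 over 3043 bins, again a description of neighbouring bins. No peak fell in 417 bins in either replicate, 357 had peaks in replicate 2 alone and 5 in replicate 1 alone. Bins were grouped by the coding genes whose lower coordinate they hold. Bins without one were covered to 0.564% in replicate 1 and 0.999% in replicate 2. Bins with 6 to 15 coding genes were covered to 4.56% and 7.36%, and those with more than 15 to 4.03% and 7.51%. Called peaks were thus sparse in the 504 bins without a coding gene, of which 306 held no peak in replicate 1 and 234 in replicate 2. Mappable length was not used, so low coverage there is not read as absence of the mark. The same 3 bins led both replicates. The densest, at 78 to 79 Mb of chromosome 10, was covered to 38.5% in replicate 1 and 44.2% in replicate 2 and holds the start of 1 coding gene by the annotation's lower coordinate. The next, at 133 to 134 Mb of chromosome 5 around FSTL4, a follistatin-like gene, was covered to 37.7% and 42.6%. The third, at 45 to 46 Mb of chromosome 11, was covered to 32.3% and 40.8% and holds SYT13 and CHST1 among 10 coding genes.

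Relative to annotation, most peaks lay away from coding gene ends. By the summit, 45.3% of replicate 1 peaks and 44.5% of replicate 2 peaks lay outside any annotated gene, a class that takes 41.0% of the span. Coding gene bodies held 31.5% and 30.7% of summits and take 37.9% of the span. The ends of lncRNA genes held 5.32% and 5.27% of summits on 3.78% of the span. Coding gene ends held 3.18% of summits in replicate 1 and 4.54% in replicate 2 on 4.55% of the span, so replicate 1 lay below the share of span and replicate 2 at it. The median summit was 43.3 kb from the nearest coding gene end in replicate 1 and 45.02 kb in replicate 2, and 26.97% and 29.09% were over 100 kb away.

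Peaks at coding gene ends differed between replicates in density as well as in number. Those of replicate 1 had a median of 48.8 tags per kb and a width of 1876 bp, close to the 44.5 tags per kb outside annotated genes. Those of replicate 2 had 76.9 tags per kb and 2316 bp, above the 51.5 tags per kb outside annotated genes.

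Of 19974 protein-coding genes, 1538 had a peak within 2 kb of an end in replicate 1 (7.7%, Wilson interval 7.34 to 8.08%) and 3819 in replicate 2 (19.1%, 18.6 to 19.7%). Both replicates had one at 1349 genes (6.75%), and at the same end at 1281 (6.41%). These shares are the background for the gene classes that follow. Long non-coding RNA genes exceeded coding genes, with 13.6% of 18177 in replicate 1 and 23.6% in replicate 2. Pseudogenes had 8.16% and 14.9%, tRNA genes 10.2% and 16.5%, miRNA genes 4.60% and 9.001%, and snoRNA genes 4.93% and 8.28%. Neighbouring and overlapping genes share peaks, so genes of a class are not independent. In short genes the windows at both ends overlap and cover less DNA, and the part of gene length in these shares was not tested.

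Kallikrein and whey acidic protein genes, which encode secreted proteases and protease inhibitors, had the highest share of the 37 classes in both replicates. Of these 32 genes, 20 had a peak in replicate 1, 22 in replicate 2 and 17 in both. KLK4 led with 117 tags per kb in replicate 1 and 189 in replicate 2. KLK2, a prostate protease, had 79.3 and 109 tags per kb, and WFDC12 had 69.4 and 108. Of 55 keratin genes, 22 had a peak in replicate 1, 23 in replicate 2 and 20 in both. They included KRT73 and KRT72, keratins of the hair root sheath, which share 1 peak of 73.4 tags per kb in replicate 1 and had separate peaks of 137 and 155 tags per kb in replicate 2, of which that of KRT72 does not overlap the replicate 1 peak. KRT2 and KRT76, keratins of stratified epithelium, had 74.4 and 71.4 tags per kb in replicate 1 and 110 and 120 in replicate 2. The keratins of simple epithelium KRT8, KRT18 and KRT19 had none. Of 41 genes of the epidermal differentiation complex, 13 had a peak in replicate 1, 22 in replicate 2 and 13 in both. Among them TCHH, trichohyalin of the hair follicle, had 95.7 tags per kb in replicate 1 and 79.4 in replicate 2 at the same end. The densest replicate 2 peak of TCHH, at 235 tags per kb, lay at its other end. Keratin-associated protein genes stood below the background of coding genes, with 4 and 14 of 94. Their median length was 0.83 kb, against 24.2 kb for all coding genes, so their end windows cover less DNA.

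Several classes of immune genes had like shares in both replicates, as did the keratins. Interferon genes, secreted antiviral cytokines, had a peak at 10 of 20 in replicate 1, 10 in replicate 2 and 8 in both. IFNL1 had 51.0 tags per kb in replicate 1 and 83.4 in replicate 2, in peaks at the same gene end that do not overlap. SIGLEC, LILR, KIR and CEACAM receptor genes had one at 18 of 52 in each replicate and 17 in both. SIGLEC14, a sialic acid receptor of myeloid cells, had 76.7 and 106 tags per kb. T and B cell receptor complex genes had 7 of 21 in replicate 1, 9 in replicate 2 and 6 in both. CD3D and CD3G share 1 peak of 161 tags in replicate 1 and 657 in replicate 2. Chemokine genes had 6 and 8 of 44, close to the background in replicate 2.

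Channel and receptor genes of neurons had more than the background share in both replicates. Relative to all coding genes, the share was 2.87 times in replicate 1 and 2.59 times in replicate 2 for potassium channels, 2.60 and 2.99 times for receptors of glutamate, GABA, glycine and acetylcholine, and 4.17 and 2.86 times for clustered protocadherins. Potassium channel genes had a peak at 21 of 95 in replicate 1, 47 in replicate 2 and 20 in both. KCNA1, a voltage-gated channel of axons, had 172 tags per kb in replicate 1 and 267 in replicate 2. Receptors for glutamate, GABA, glycine and acetylcholine had 14 and 40 of 70, with 13 in both. GRIK2, a kainate receptor subunit, had 137 and 242 tags per kb. Receptors for serotonin, dopamine and adrenaline had 9 and 21 of 31. Clustered protocadherins, neuronal surface identity proteins on chromosome 5, had 17 and 29 of 53. PCDHGB3 and PCDHGA6 share 1 peak of 99.6 tags per kb in replicate 1 and 192 in replicate 2. Olfactory receptor genes, silent outside the nose in general, had 55 of 392 in replicate 1, 117 in replicate 2 and 50 in both.

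Genes of hepatocyte function were near the middle of the range. Plasma protein genes of liver had a peak at 7 of 48 in replicate 1, 17 in replicate 2 and 5 in both. SERPINC1, the gene of antithrombin, had 47.7 tags per kb in replicate 1 and 64.6 in replicate 2. AHSG, the gene of fetuin A, had 42.9 and 53.0. Cytochrome P450 genes had 7 and 16 of 55 with 5 in both, including CYP8B1, a bile acid synthesis enzyme, at 68.2 and 88.2 tags per kb and CYP1A2, a xenobiotic-metabolising enzyme, at 60.9 and 81.7. Against the medians of all peaks, 44.7 tags per kb in replicate 1 and 52.5 in replicate 2, AHSG lay near them, and CYP8B1 lay above the 65.9 tags per kb at which the densest 5% of replicate 1 began. Within TTR, the thyroxine carrier gene, 46.7% of the body was under peaks in replicate 1 and 35.8% in replicate 2. Within HNF4A, a liver transcription factor gene, it was 24.8% and 48.1%.

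Developmental transcription factors separated the replicates more than any other group here. Over 4 classes of 300 genes, 29 (9.67%, Wilson interval 6.82 to 13.5%) had a peak at an end in replicate 1 and 188 (62.7%, 57.1 to 67.9%) in replicate 2, with 25 in both. These intervals take genes as independent, although neighbours share peaks, and do not cover the spread between libraries. HOX cluster genes had 0 of 39 in replicate 1 and 25 in replicate 2. Homeobox genes outside the clusters had 21 and 91 of 133, with 19 in both. SOX, FOX, GATA and T-box factor genes had 5 and 45 of 86, and basic helix-loop-helix factors 3 and 27 of 42. When replicate 2 was held to its 46173 peaks of highest score, an alternative chosen after the data were seen, 180 of the 300 and 23 of the 39 HOX genes still had a peak. The difference between replicates in these classes was thus also present at equal peak number.

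The HOX clusters show the contrast in full. HOXA was covered to 0% in replicate 1 and 89.1% in replicate 2, and HOXD to 0% and 92.4%. HOXB was covered to 13.3% and 33.8% and HOXC to 0% and 12.02%. In the 200 kb on either side of HOXA, coverage was 7.25% in replicate 1 and 17.4% in replicate 2, and beside HOXD 8.77% and 13.6%. Beside HOXC it was 26.6% and 27.6%. Replicate 1 therefore had called peaks around 3 clusters and none within them, and around HOXC both replicates had similar coverage. In HOXB, the 13 peaks of replicate 1 lay away from the ends of its 10 genes.

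FGF ligand genes had a peak at 6 of 22 in replicate 1, 15 in replicate 2 and 6 in both. FGF10, a ligand of limb and lung budding, had 70.6 tags per kb in replicate 1 and 150 in replicate 2. WNT ligand genes had 4 and 8 of 19, and BMP, GDF and hedgehog ligand genes 2 and 12 of 30. Relative to all coding genes, these shares were 3.54 times in replicate 1 and 3.57 times in replicate 2 for FGF ligands, 2.73 and 2.20 times for WNT ligands, and 0.866 and 2.09 times for BMP, GDF and hedgehog ligands. NODAL, a ligand of the early embryo axis, had 49.5 tags per kb in replicate 1 and 201 in replicate 2, in peaks at the same gene end that do not overlap.

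Housekeeping and cell cycle genes had few peaks. Across 6 such classes of 356 genes, 0 had a peak in replicate 1 and 7 (1.97%) in replicate 2. These classes cover ribosomal proteins of cytosol and mitochondria, histones, the proteasome, aminoacyl-tRNA synthetases, and cell cycle and replication genes. The 7 were MRPS33, PSMA1, POLE, GINS2, RPL38, POLD1 and MCM5, of which 4 came from the 60 cell cycle and replication genes. Zinc finger protein genes, many of them KRAB repressors, had 13 of 569 in replicate 1 and 41 in replicate 2, below the background in both. Cancer-testis antigen genes on X had 0 and 6 of 91. The peak rate per Mb of X was 0.0725 of the autosomal rate in replicate 1 and 0.253 in replicate 2. A share over all coding genes of X was not computed, so the low count is not read as a trait of this class.

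**Figure D3:**
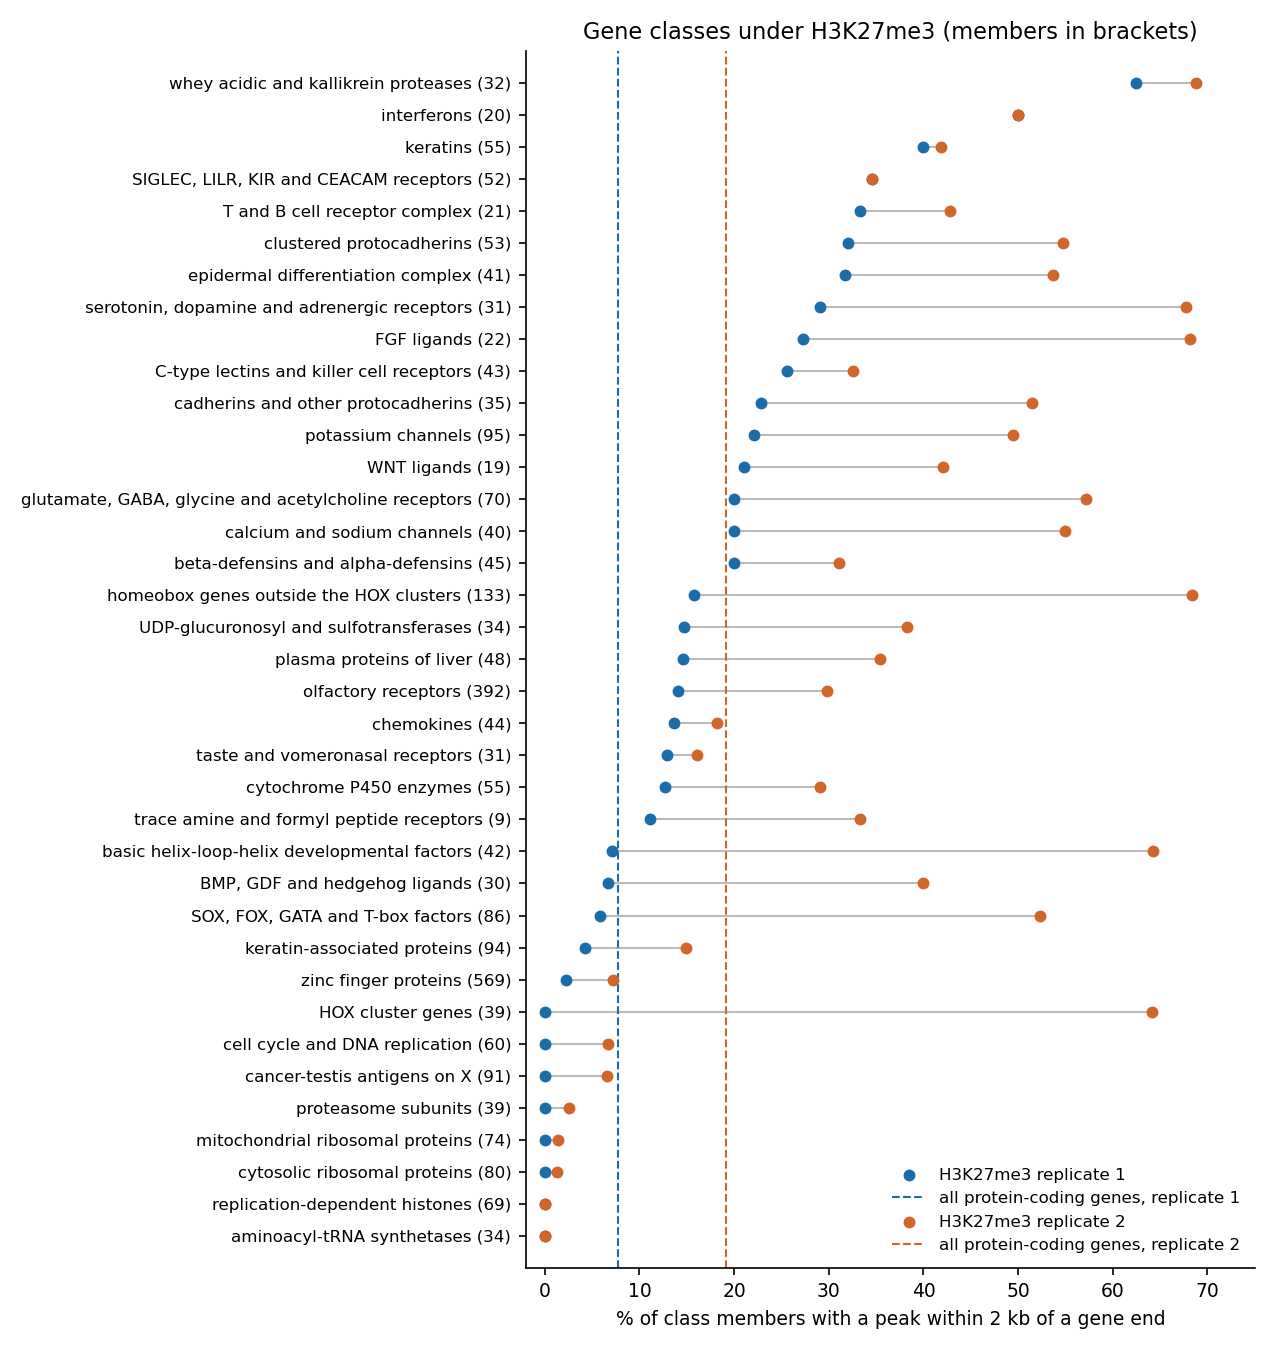
Percentage of the members of 37 gene classes (rows, members in brackets) with an H3K27me3 peak within 2 kb of a gene end, with 1 point per replicate joined by a grey line. Dashed lines give the share among all protein-coding genes, 7.7% in replicate 1 and 19.1% in replicate 2. The points of the keratins (40% and 41.8%) lie close together and those of the HOX genes (0% and 64.1%) far apart.

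The 10 coding genes with the best shared rank of density at the same end were taken from all coding genes. NKX2-8, a homeobox factor, had 240 tags per kb in replicate 1 and 309 in replicate 2 in a peak over the whole gene, at chr14:36579099-36585899 in replicate 1. PCDH17, a neuronal protocadherin, had 226 and 342. MSX1, a homeobox factor of face and limb, had 215 and 285. TAC1, the precursor gene of substance P, had 205 and 366, and EBF1 had 197 and 340. KCNA1, EGFLAM, LRFN5, MSX2 and SLFN11 completed the 10. The MSX1 peak began 5 bp beyond the annotated gene in replicate 1 and was 11950 bp wide, and in replicate 2 it began inside the gene. Dense shared peaks were thus found for developmental factors too, although as a class these had few peaks in replicate 1.

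Some genes had a dense peak in 1 replicate and none at that end in the other. In replicate 1, LTK, a receptor tyrosine kinase, had 1539 tags at 323 per kb, the densest peak of that list. LPIN1, a phosphatidate phosphatase, had 130 tags per kb, and MGAT5B, a brain glycosyltransferase, had 122. In replicate 2 the densest were PGR, the progesterone receptor, at 537 tags per kb, NPTX2, a neuronal pentraxin, at 530, FOXC1 at 517, IRX5 at 515 and ZIC5 at 510. FOXC1, IRX5 and ZIC5 encode developmental transcription factors. The 10 genes of replicate 2 lay between 484 and 537 tags per kb, above every peak of replicate 1.

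Bodies of long genes were mostly uncovered. Of 10991 coding genes of 20 kb or longer, 79.9% had no base under a peak in replicate 1 and 71.8% in replicate 2. In replicate 1, 55 genes (0.5%) were covered to 50% or more, against 206 (1.87%) in replicate 2 and 39 (0.355%) in both. KRT73 led with 86.5% of 23.2 kb in replicate 1 and 86.6% in replicate 2. MYO1A, a myosin of the gut brush border, had 77.9% and 76.5%. SLC6A17, a transporter of synaptic vesicles, had 73.6% and 80.2%, and BPI, a bactericidal protein of neutrophils, had 72.1% and 84.4%. ADD2, a membrane skeleton adducin, was the longest of the 10 at 111 kb, with 69.5% and 71.0%. DPYSL5 had 69.2% and 70.1% of 102 kb. LCP2, an adaptor of T-cell signalling, had 66.1% and 72.9% of 51.5 kb. For these genes the replicates differed by at most 12.3 percentage points of body length. They were ranked by the lower coverage of the 2 replicates. High coverage in both thus follows from the choice, and the small difference does not measure agreement between the replicates.

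Gene starts with a peak in replicate 1 were mostly CpG-poor, and those with one in replicate 2 alone were CpG-rich about as often as all starts. In 15812 coding genes with a RefSeq promoter, a peak lay within 2 kb of the start at 687 in replicate 1 (4.34%), at 2259 in replicate 2 (14.3%) and at 588 in both. Promoters were ranked by the observed over expected CG ratio of 300 bases, from 250 before to 50 after the start, and split into 5 groups of like size. From the lowest to the highest group, the share with a peak in replicate 1 was 13.2%, 5.91%, 1.58%, 0.601% and 0.443%. In replicate 2 it was 21.5%, 18.7%, 12.5%, 10.1% and 8.66%. The share fell at each step in both replicates, by 29.8 times from first to last in replicate 1 and by 2.48 times in replicate 2. CpG-rich promoters, with a ratio of 0.6 or more and a GC content of 50% or more, were 63.1% of all, 13.2% of those with a replicate 1 peak, 13.1% of those with both and 60.5% of those with replicate 2 alone.

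Around the start the replicates had different shapes. At developmental factor starts (205), 2.93% lay under a peak at the start itself in replicate 1 and 57.6% in replicate 2, whereas 20 kb upstream it was 13.7% and 28.8%. Of these 205 starts, 151 (73.7%) were CpG-rich. At the CpG-rich starts of other genes (9830), 0.326% lay under a peak at the start in replicate 1 and 8.59% in replicate 2, with 3.56% and 5.99% at 20 kb upstream. At these 9830 starts replicate 1 thus had few peaks where replicate 2 had its highest share. At CpG-poor starts (5777) both replicates were highest at the start, with 6.21% in replicate 1 and 14.2% in replicate 2, against 4.57% and 7.51% at 20 kb upstream. Of starts whose whole 300 bases lay inside a peak, 32 of 365 were CpG-rich in replicate 1 and 924 of 1658 in replicate 2, and 279 were inside in both.

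**Figure D4:**
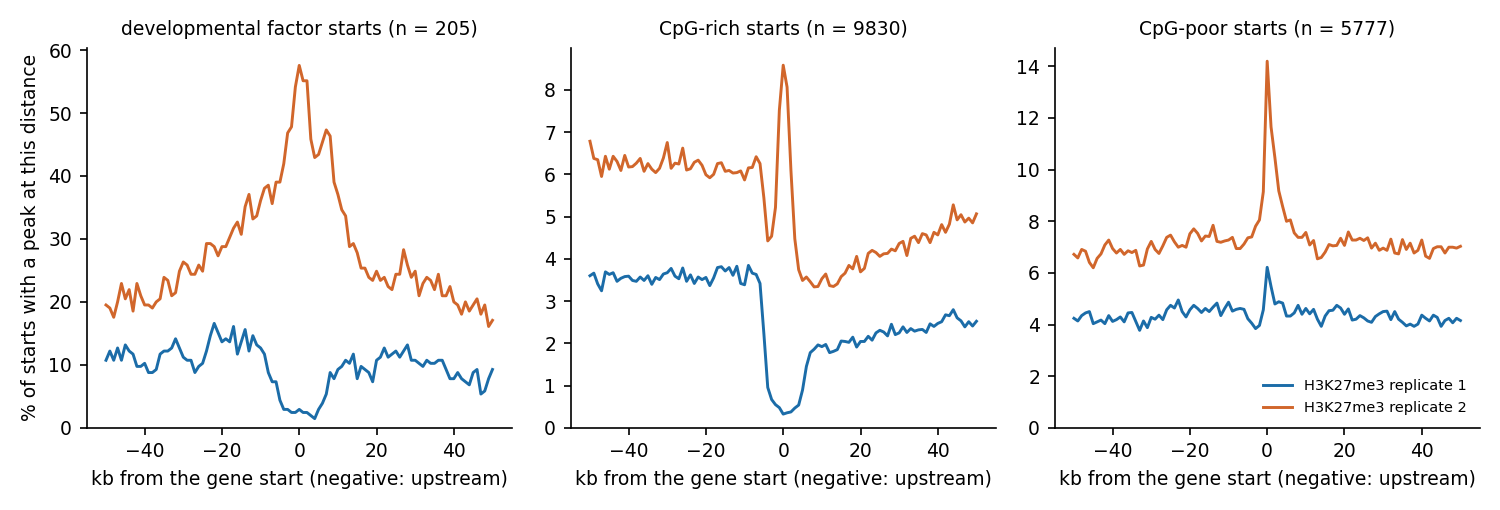
Percentage of gene starts with an H3K27me3 peak (vertical axes, which differ in scale) at each distance from the start in kb (horizontal axes, negative upstream), for developmental factors of any CpG content, and for CpG-rich and CpG-poor starts of all other genes, with 1 line per replicate. Replicate 1 is at 2.93% and 0.326% at the start in the first 2 panels, where replicate 2 reaches 57.6% and 8.59%, and both have their highest value at the start in the panel of CpG-poor starts.

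Peak by peak, 33284 peaks of replicate 1 (72.1%, Wilson interval 71.7 to 72.5%) overlapped replicate 2 by at least 1 bp, and 36423 of replicate 2 (40.3%, 39.9 to 40.6%) overlapped replicate 1. These intervals take neighbouring peaks as independent and cover counting error only, not the spread between libraries. The shared bases, 56.9 Mb, were 62.2% of replicate 1 and 37.3% of replicate 2. Peaks were also ranked by MACS score within each list and split into 10 classes of like size. Overlap went up from 52.7% in the lowest class of replicate 1 to 93.7% in the highest. In replicate 2 it went up from 18.2% to 71.2%, with 69.8% already in class 9. Of the 2000 peaks of highest score, an alternative chosen after the data were seen, 94.3% in replicate 1 and 55.1% in replicate 2 overlapped the whole other list, so overlap in replicate 2 was lower at the very top of the score than in its highest class as a whole. The highest class of replicate 2 also held the most peaks at coding gene ends, 18.0% against 7.89% in the class below it, and the most over EZH2 peaks, 14.7% against 2.80%. In replicate 1 those shares in the highest class were 8.45% and 4.14%. Median width also rose from the lowest to the highest class, from 1056 to 4054 bp in replicate 1 and from 790 to 3401 bp in replicate 2. Wider peaks have more room to meet another interval, and the part of width in these shares was not tested. Replicate 2 peaks at coding gene ends overlapped replicate 1 in 32.9% of cases, against 40.7% outside annotated genes. For replicate 1 the order was the other way, with 77.7% of coding gene end peaks and 71.8% of peaks outside genes overlapping replicate 2. With replicate 2 held to as many peaks as replicate 1, the 2 overlaps came to 55.0% and 55.8%.

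**Figure D5:**
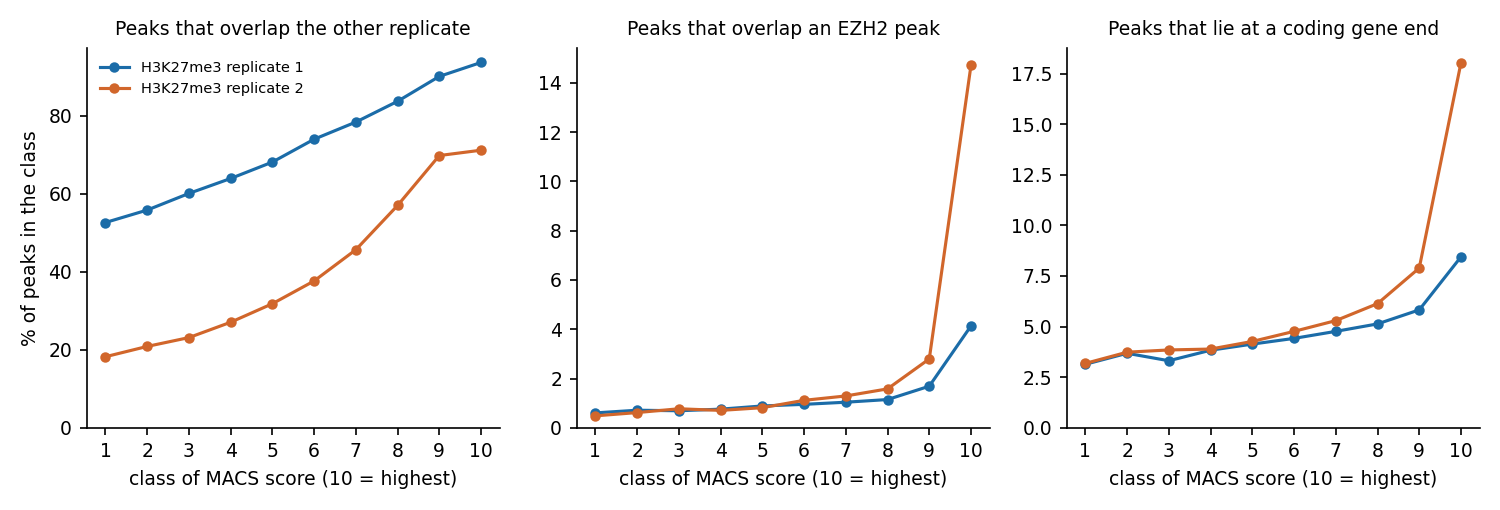
Percentage of H3K27me3 peaks (vertical axes) that overlap the other replicate, overlap an EZH2 peak of either EZH2 replicate, or lie within 2 kb of a coding gene end, by class of the MACS score within each replicate (horizontal axes, class 10 the highest). Replicate 2 steps up to 14.7% over EZH2 and 18.0% at coding gene ends in its highest class, against 4.14% and 8.45% in replicate 1. Median peak width rises with the class in both replicates, and its part was not tested.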

How the data were processed

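ChIP-seq reads were trimmed with cutadapt and mapped with Bowtie2, and peaks were called with MACS 1.4.2 on GRCh38, per the submitters' processing notes. Per the file headers, each IP library was compared with its own input at a p cutoff of 1e-05 with at most 1 tag kept per position, and replicates were not pooled. The deposited lists give the position, length and summit of each peak in bp, its tag count, a score of -10 times log10 of the MACS p, a fold enrichment ratio over background and a false discovery rate in percent, as the authors left them. The tag counts, scores and percent values were used as deposited, tag counts also per kb of peak, and the fold enrichment was not used for any result.

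Coordinates were compared with RefSeq on GRCh38.p14 (59098 genes on chromosomes 1 to 22 and X) in Python 3.11.15 with NumPy 2.4.6, pandas 2.3.3 and SciPy 1.17.1. The annotation table used holds no strand, so gene end means either end of a gene and 2 kb on both sides of it. Gene starts came from the RefSeq promoter table. Chromosome length was taken as the highest gene or peak end. The interval operations were tested on simulated data.

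Groups were compared over libraries by exact two-sided permutation with Benjamini-Hochberg adjustment over 8 differences. Genes named are those under the 10 widest shared domains, the 10 most covered bodies of genes of 20 kb or longer, up to 4 per class with the best worse rank of tags per kb, the 10 densest in 1 replicate only, and the HOX clusters, ALB, ACTB and GAPDH. Not every such gene is reported here, and the members, lists and rules were chosen with earlier results of these data known. ACTB and GAPDH had no peak. Of 129 symbols listed by name in the gene classes, 129 were matched. Alternatives changed the score minimum, the number of peaks, the window, the gap, the overlap and the libraries.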

Additional observations from a re-analysis of the deposited data

Results flagged for a closer look

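Outside chromosomes 1 to 22 and X, the H3K27me3 lists held 25 peaks in replicate 1 and 63 in replicate 2. These lie in data that no comparison above used, and are given as counts only.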

How the results depend on the processing

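With 2 libraries a side no difference could pass 0.05, so the alternatives bear on direction. Of 48 alternative values of the 8 differences, 45 kept their direction. These include the values with the replicate number as a block, which equal the main difference by construction. The exceptions were the median width against EZH2, which was -717 bp, 2074 bp with the 2000 peaks of highest score in each list and 85.0 bp without replicate 1, and the share at coding gene ends against JARID2, which was -8.13 percentage points and 3.98 with the 2000 peaks of highest score. The cause was not tested. A MACS score of 100 or more moved the last difference to -37.9 percentage points and the width against EZH2 to -1807 bp. With the 2000 peaks of highest score, coverage was 0.144 percentage points above EZH2 in place of 3.77 and 0.335 above JARID2 in place of 3.92, and the share of tags 0.60 above EZH2 in place of 19.2 and 3.33 above JARID2 in place of 21.7. Without 1 replicate number, the differences against EZH2 ran from -1518 to 85.0 bp in width, -49.9 to -28.8 percentage points at gene ends, 2.77 to 4.76 in coverage and 9.08 to 29.3 in tags. Against JARID2 they ran from 512 to 896 bp, -8.73 to -7.52, 2.91 to 4.92 and 11.5 to 31.9. With the replicate number as a block, the coverage differences are again 3.77 and 3.92 percentage points (exact sign-flip permutation p = 0.5, the smallest that 2 pairs allow). The block leaves every mean difference as it was, so it could not change a direction. No label states that a number marks a shared culture. Coding genes with a peak in replicate 1, replicate 2 and both numbered 917, 2936 and 760 at a score of 100 or more, 2470, 5094 and 2252 with a 5 kb window, and 687, 2259 and 588 with the start window. Gaps of 10 kb gave 16453 and 24861 domains of median width 3214 and 3553 bp, in place of 1930 and 1654 bp. On X, replicate 2 had 485 peaks when held to as many peaks as replicate 1, in place of 1227. Inputs held 25.1 and 31.1 M tags, and the part of depth in the number of peaks called was not tested.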
